A study of Mus musculus with 2 samples.

Results

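Single cells were profiled with 10x 3′ RNA-seq from mouse bone marrow sorted as LSK CD150+ cells. LSK stands for a lack of lineage markers together with surface Sca-1 and Kit, and CD150 is a SLAM family receptor. The gate described here was defined by 7 genes, Clec4d, Tcp11l2, Fam189b, Furin, Gadd45g, F2r and Gnb4. A cell belonged to it when at least 4 of the 7 had at least 1 UMI, a unique molecular identifier that stands for 1 captured mRNA molecule. The gate held 4520 of 20241 cells kept from both libraries, 22.3%. The labels name 1 library as RUNX1 WT and the other as RUNX1 KO. The series names Runx1F/F Mx1-Cre as its mouse model, in which loxP sites flank Runx1 and interferon signalling turns on the Cre recombinase, a promoter that is not confined to blood cells. About 10000 cells were sorted for each. The number and age of the mice per library, the treatment that induced Cre and whether the WT mice carried Cre are not given in the sources used here. The aim stated in the series was to compare the composition of the sorted population. With 1 library per genotype nothing below has a replicate check and nothing was tested, and the 95% intervals cover counting error only.

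Haematopoietic stem cells renew themselves and give rise to every blood lineage, and part of the CD150-bearing compartment is known to be primed towards megakaryocytes, the cells that shed platelets. RUNX1 is a transcription factor that binds DNA with its partner CBFB and is needed for normal megakaryocyte maturation. Of the genes that define the gate, F2r encodes PAR1, a thrombin receptor, and Gnb4 encodes a β subunit of the heterotrimeric G proteins through which such receptors signal. Furin encodes a protease that cuts proproteins into their active forms. Clec4d encodes a C-type lectin receptor known from myeloid cells, which signals with the Fc receptor γ chain, and Gadd45g encodes a stress-induced activator of the MAP kinase kinase kinase MAP3K4.

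The promoters of 4 of these genes are shown because the labelled genotype concerns a DNA-binding factor, and the 4 include every defining gene with a RUNX match in the window read. Each run is the 250 bases before the RefSeq transcription start on GRCm38.p6, written 5′ to 3′ on the gene's own strand. Capitals mark RUNX matches (TGTGGT or TGCGGT, either strand) and GATA matches (AGATAA or TGATAA or AGATAG or TGATAG, either strand). None of these matches overlap.
Fam189b, chr3:89182893-89183142, plus strand: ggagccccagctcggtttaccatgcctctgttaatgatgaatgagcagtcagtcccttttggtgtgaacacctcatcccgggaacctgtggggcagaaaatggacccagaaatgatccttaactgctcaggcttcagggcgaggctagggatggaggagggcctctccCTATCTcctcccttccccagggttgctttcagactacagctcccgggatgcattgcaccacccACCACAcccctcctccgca
Furin, first of its 2 starts, chr7:80405437-80405686, minus strand: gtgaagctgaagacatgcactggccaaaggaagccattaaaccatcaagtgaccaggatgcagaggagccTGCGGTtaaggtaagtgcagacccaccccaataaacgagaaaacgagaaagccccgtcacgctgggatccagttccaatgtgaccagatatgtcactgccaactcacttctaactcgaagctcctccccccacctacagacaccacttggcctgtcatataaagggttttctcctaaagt
F2r, chr13:95618467-95618716, minus strand: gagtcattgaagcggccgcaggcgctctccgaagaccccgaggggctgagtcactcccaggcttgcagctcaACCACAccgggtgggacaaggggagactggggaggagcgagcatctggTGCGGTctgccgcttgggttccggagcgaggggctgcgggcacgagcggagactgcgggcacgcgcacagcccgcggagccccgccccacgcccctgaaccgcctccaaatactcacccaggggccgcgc
Clec4d, chr6:123261857-123262106, plus strand: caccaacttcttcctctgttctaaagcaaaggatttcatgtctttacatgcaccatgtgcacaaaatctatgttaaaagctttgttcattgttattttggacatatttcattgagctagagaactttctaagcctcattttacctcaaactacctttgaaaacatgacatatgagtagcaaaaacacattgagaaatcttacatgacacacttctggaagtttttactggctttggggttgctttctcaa
Fam189b has a RUNX match starting 19 bases before the start and a GATA match 82 bases before it. Furin has a RUNX match 180 bases before the start. F2r has 2 RUNX matches, 178 and 130 bases before the start, while the Clec4d window holds neither motif. A window was found for 6 of the 7 genes (all but Gnb4), and 3 of the 6 held a RUNX match, against 18.6% of all 32851 promoter windows of that length. The first count is by gene, with both windows of Furin read, and the second by window. A match describes letters in the window and does not show that a factor binds there.

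Runx1 itself, the targeted gene, was higher in the KO-labelled library, at 196 CPM against 104 CPM in the WT library, where CPM is the gene's count per 1000000 UMIs of the cells summed. The sources used here do not state which stretch of Runx1 the loxP sites flank, and 3′ tags outside that stretch check nothing, so the second library is called KO-labelled throughout. The WT library held 113732196 UMIs in 9969 barcodes, of which 9472 cells were kept, and the KO-labelled library held 120578398 UMIs in 11398 barcodes, of which 10769 were kept. The level of Xist, which coats the silenced X in female cells, was 1.78 CPM among WT and 1319 CPM among KO-labelled cells. The cells of the 2 libraries thus differed in sex as well as in label, and these cannot be told apart except within the 973 KO-labelled cells that had Y-linked UMIs and no Xist. The libraries shared 33 kept barcodes, 1 of them in the gate in both.

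The gate took 11.3% of the WT library (1068 cells, interval 10.6 to 11.9) and 32.1% of the KO-labelled library (3452 cells, 31.2 to 33.0). Each of the 7 defining genes also had a higher level over all kept KO-labelled cells than over all kept WT cells. Fam189b stood at 68.6 against 20.1 CPM, Gadd45g at 42.6 against 13.4 CPM and F2r at 99.3 against 69.1 CPM. The genes were proposed from these data, so the difference in share is not independent of their choice. Gate cells were deeper than the other kept cells. Their median was 15030.5 UMIs against 9472.5 in the WT library and 10291.5 against 8891 in the KO-labelled library. Among WT cells the share was larger in deeper cells, from 5.63% of cells under 5000 UMIs to 10.1% between 10000 and 15000 and 30.7% at 20000 or more. In the KO-labelled library it was 17.9%, 33.6% and 40.5% in the same classes. The KO-labelled share was the higher in each of the 5 depth classes, and with both libraries weighted to 1 common depth distribution the shares were 10.7% and 32.2%. After each cell was thinned to 3000 UMIs, 0.483% of WT cells (45 of 9317) and 4.69% of KO-labelled cells (501 of 10678) still had 4 of the 7 genes.

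**Figure D1:**
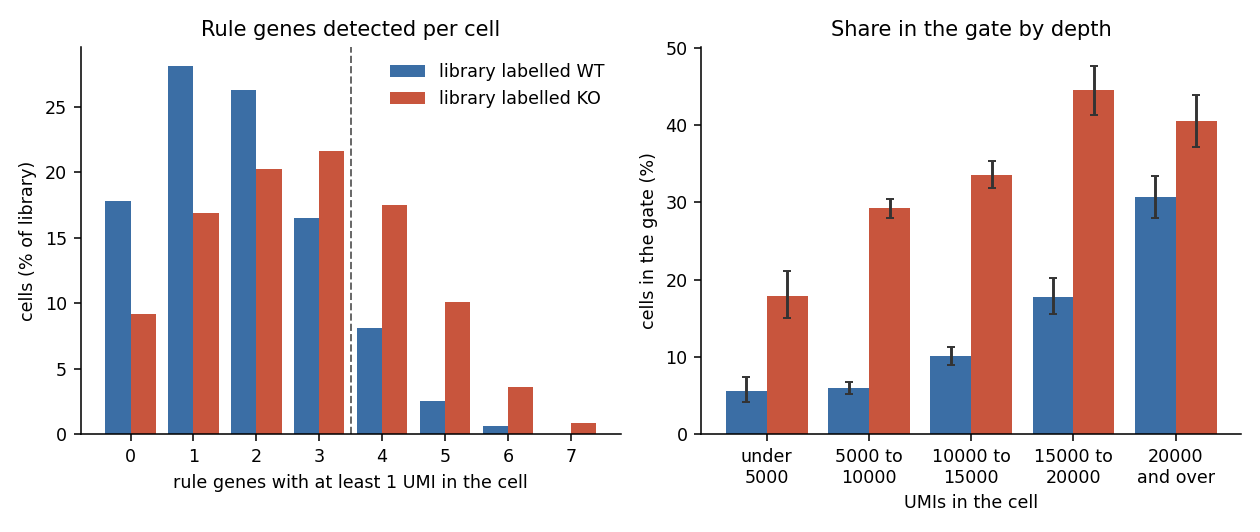
Left, percent of the kept cells of each library by the number of defining genes with at least 1 UMI, with the gate to the right of the dashed line. Right, percent of cells in the gate by the UMIs of the cell, with exact 95% binomial intervals for counting error: the KO-labelled share was above the WT share in each depth class, and lay at 33.6% against 10.1% between 10000 and 15000 UMIs.

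The difference in share was also present in cells of 1 sex. Of the 973 KO-labelled cells with Y-linked UMIs and no Xist, 31.3% were in the gate (interval 28.4 to 34.4), against 32.1% of the 8927 cells with at least 2 Xist UMIs and no Y-linked UMI. Of the 6690 WT cells with Y-linked UMIs and no Xist, 12.96% were in the gate. The 237 KO-labelled cells with both kinds of UMI had a median of 17791 UMIs and 58.6% of them were in the gate, but they made up only 4.03% of it. Cells among the 8% highest doublet scores made up 23.97% of the WT gate and 5.84% of other WT cells, and 13.1% of the KO-labelled gate and 5.60% of other KO-labelled cells. Without these cells the shares were 9.31% and 30.3%.

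Cells at the edge of the gate were common. Exactly 4 of the defining genes were seen in 766 WT cells and 3 in 1561. In the KO-labelled library 1887 had 4 and 2332 had 3, and the most frequent number of genes per cell was 3, against 1 in the WT library. Only 3 WT cells and 89 KO-labelled cells had all 7. The most frequent combination was the same in both, Clec4d with Fam189b, F2r and Gnb4 and no other, in 12.9% of WT gate cells and 11.1% of KO-labelled gate cells. The gate was spread over many combinations, 61 in the WT library and 64 in the KO-labelled library of the 64 that the rule allows.

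The levels of the defining genes in the gate chose its cells and are given as a description. F2r (ENSMUSG00000048376, chromosome 13, 95601803 to 95618487 of GRCm38, minus strand) stood at 164 CPM in KO-labelled gate cells and 64.7 CPM in the other cells, and at 108 and 61.3 CPM in the WT library. Furin (ENSMUSG00000030530, chromosome 7, 80388585 to 80405436, minus strand) stood at 58.9 and 18.3 CPM in the KO-labelled library and 37.8 and 13.9 CPM in the WT library. Clec4d (ENSMUSG00000030144, chromosome 6, 123262111 to 123275265, plus strand) stood at 148 and 46.3 CPM, and at 84.2 and 33.0 CPM. These 3 genes, which name the population, were thus all present outside the gate as well. Gnb4 (ENSMUSG00000027669, chromosome 3, 32580332 to 32616585, minus strand) stood at 203 and 83.2 CPM in the KO-labelled library and 112 and 56.3 CPM in the WT library. Tcp11l2 (ENSMUSG00000020034, chromosome 10, 84576626 to 84614359, plus strand) stood at 31.8 and 14.6 CPM, and at 22.0 and 10.3 CPM. Fam189b (ENSMUSG00000032657, chromosome 3, 89183143 to 89189295, plus strand) stood at 116 and 43.1 CPM in the KO-labelled library and 45.1 and 15.2 CPM in the WT library. Gadd45g (ENSMUSG00000021453, chromosome 13, 51846678 to 51848468, plus strand) stood at 77.0 and 24.3 CPM, and at 31.1 and 9.94 CPM. Read at 1 depth of 3000 UMIs, Clec4d had a UMI in 29.0% of WT gate cells, 23.2% of WT erythroid reference cells outside the gate (at least 10 UMIs over 6 erythroid genes) and 2.11% of granulocyte-monocyte reference cells (at least 20 UMIs over Mpo, Elane, Prtn3 and Ctsg). The median depth before thinning was 15634 UMIs in the erythroid and 15472.5 UMIs in the granulocyte-monocyte reference cells. F2r had a UMI in 32.1% of WT gate cells at this depth, 9.10% of erythroid and 3.83% of granulocyte-monocyte reference cells. The 7 genes therefore did not have a common low level in cells outside the gate.

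When each defining gene was left out in turn and the cells were chosen by 4 of the other 6, the gene left out was higher in the chosen cells for 7 of 7 genes in the KO-labelled library, with ratios from 1.14 (Tcp11l2) to 1.77 (Clec4d). Among WT cells it was higher for 6 of 7, from 1.2 (Gadd45g) to 1.38 (Gnb4). Tcp11l2 was the exception at 0.896, with an interval of 0.760 to 1.05. Against other cells weighted to the same depth, all 7 were higher in both libraries, from 1.35 to 1.55 in WT cells and from 1.43 to 1.89 in KO-labelled cells. The 7 genes were proposed together from these data, so this is not independent of their choice.

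Beyond the defining genes, genes at 20 CPM or more were ranked if at least 10% of the cells on the higher side held a UMI. The 12 ranked genes highest in the KO-labelled gate included the phosphodiesterase gene Pde5a, the thrombin receptor relative F2rl2 and the platelet receptor genes Clec1b and P2ry1. Thbs1 had a higher ratio, 2.86, but a UMI in only 9.68% of KO-labelled gate cells, and was not ranked. At 20 CPM or more in gate or other cells, 16 of 5738 genes were at least 2-fold higher in gate cells (0.279%) and 86 were at least 2-fold lower (1.5%). Pde5a, the phosphodiesterase that breaks down cyclic GMP, stood at 41.5 CPM in KO-labelled gate cells and 16.5 CPM in other cells, a ratio of 2.51 (interval 2.33 to 2.70). In the WT library its values were 35.8 and 18.4 CPM, a ratio of 1.94 (1.77 to 2.13). F2rl2 encodes PAR3, a relative of the F2r product, and was not used to choose cells. It stood at 40.5 and 17.2 CPM in the KO-labelled library (ratio 2.35) and 33.3 and 16.7 CPM in the WT library (1.99). Clec1b, the platelet receptor CLEC-2, stood at 45.0 and 19.1 CPM in the KO-labelled library (2.35) and at 12.8 and 5.88 CPM in the WT library (2.17). P2ry1, a platelet receptor for ADP, stood at 26.0 and 12.8 CPM (2.02), and at 25.0 and 15.6 CPM in the WT library (1.61).

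Mfsd2b, the exporter of sphingosine-1-phosphate in platelets and red cells, stood at 76.8 CPM in KO-labelled gate cells and 34.9 CPM in other cells (2.20), and at 87.4 and 49.4 CPM in the WT library (1.77). Slc35d3, a gene needed for platelet dense granules, had ratios of 2.12 and 2.15, Samd14 of 2.13 and 1.77, and Ache, which encodes acetylcholinesterase, of 2.02 and 1.68, KO-labelled first. Mylk3, a myosin light chain kinase gene, had ratios of 2.1 and 1.75, and Dnah12, a dynein heavy chain gene, of 2.37 and 1.71. Ccl17, a chemokine gene, had ratios of 2.50 and 1.63. Of these 12 genes, Chst1, a sulfotransferase gene, was the only one whose WT interval included 1: its ratio was 2.46 in the KO-labelled library and 1.19 (0.692 to 1.95) in the WT library, where gate cells held only 20 UMIs of it. The KO-labelled ratio of each of the 12 kept its direction under all 8 alternatives run. These alternatives reuse the cells in which the 12 were ranked highest, so this is not independent of their choice.

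**Figure D2:**
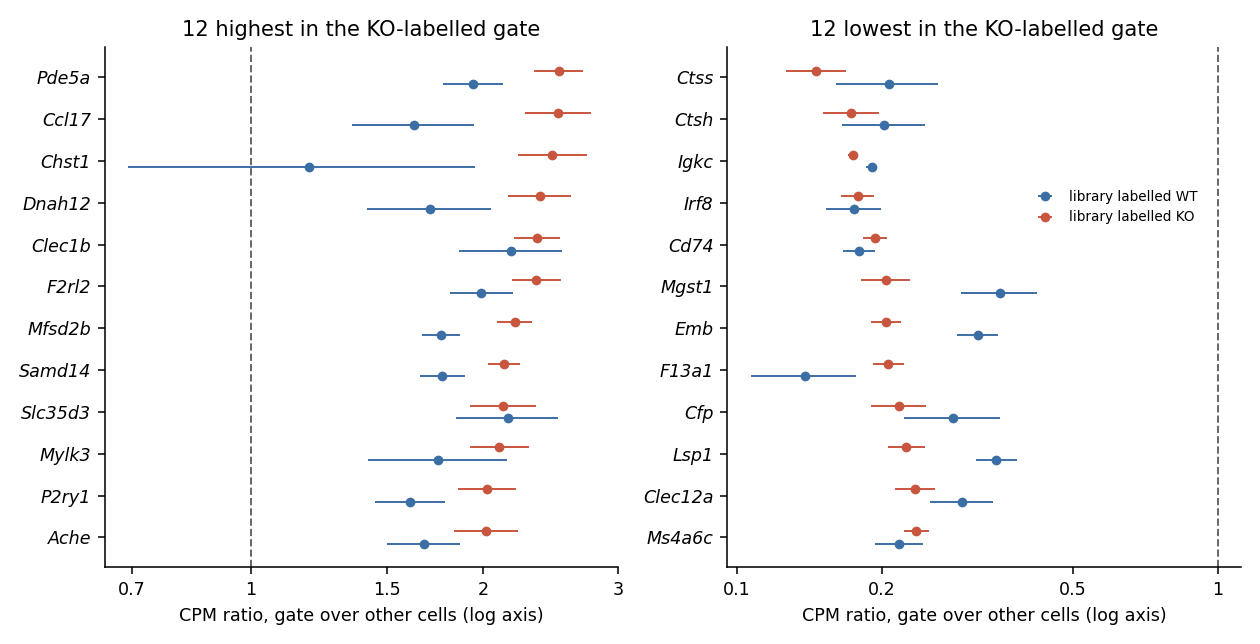
CPM in gate cells divided by CPM in other kept cells of the same library, on a log axis, for the 12 highest and the 12 lowest genes of the KO-labelled gate, with exact 95% intervals for counting error. The WT points lie on the same side of 1 as the KO-labelled points for each of the 24 genes, and only the WT interval of Chst1 reaches 1.

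Promoter windows of 250 bases were found for 11 of these 12 genes. A GATA match lay in 5 of these genes (Clec1b, Mylk3, Ccl17, Dnah12 and F2rl2), against 26.5% of all windows, and a RUNX match in 1 (Ache). Here too the count is by gene, and Mylk3 has 2 windows. The F2rl2 match, AGATAA, started 95 bases before the RefSeq start.

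Megakaryocyte and platelet genes were mostly higher in the gate in both libraries. Of the 22 genes of the megakaryocyte and platelet list, 18 were at 5 CPM or more in the KO-labelled library and 17 of these were higher in gate cells, with a median log2 ratio of 0.73. In the WT library 17 of 17 were higher, with a median of 0.61. Over all genes at that level the medians were 0.01 and 0.03. Pf4, the platelet chemokine platelet factor 4, stood at 717 CPM in KO-labelled gate cells and 362 CPM in other cells, and at 2512 and 1279 CPM in the WT library, so the ratios (1.98 and 1.96) were close although the levels were not. Treml1, a receptor of platelet α granules, had ratios of 1.97 and 1.78. Thbs1, which encodes the platelet matrix protein thrombospondin 1, had ratios of 2.86 (23.8 and 8.33 CPM) and 1.98 (2.15 and 1.08 CPM). Against depth-matched other cells the list medians were 0.70 and 0.52.

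Genes of granulocytes, monocytes and lymphocytes were low in the gate. In the granulocyte and monocyte progenitor list 16 of 17 measured genes were lower in KO-labelled gate cells (median log2 ratio -1.76) and 14 of 15 in WT gate cells (-1.05). Against depth-matched cells these medians were -1.94 and -1.71. Irf8, a transcription factor of monocytes and dendritic cells, stood at 16.2 CPM in KO-labelled gate cells against 90.9 CPM, and at 12.6 against 72.3 CPM in the WT library. Ctsg, a granule protease of myeloid progenitors, stood at 151 against 596 CPM, and at 143 against 358 CPM. All 9 measured genes of the monocyte and dendritic cell list were lower in both libraries, with medians of -2.47 and -2.60. The cathepsin gene Ctss had ratios of 0.146 and 0.207, and the invariant chain gene Cd74 had ratios of 0.194 and 0.179. Lysosomal and myeloid genes Ctsh, Mgst1, Emb, F13a1, Cfp, Clec12a and Ms4a6c had KO-labelled ratios of 0.173 to 0.236, and WT ratios of 0.138 to 0.352.

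For 8 measured neutrophil granule genes the KO-labelled median was -2.49, and for 6 in the WT library it was -3.67. In WT gate cells Mmp8, Cd177 and Ly6g of this list had 0 UMIs, which allows up to 0.161 CPM. Single cells carried much of what the KO-labelled gate had: 1 cell held 62.7% of its S100a9 UMIs, and without that cell the ratio of 0.140 became 0.0523. The lymphoid priming list had medians of -1.29 and -1.55, with 5 of 7 measured genes lower in each library. Mef2c, a transcription factor gene of that list that megakaryocytes also use, went the other way, with ratios of 1.45 and 1.29. Igkc, an immunoglobulin light chain gene, rested on 1 cell in each gate, which held 91.9% of the KO-labelled and 90.3% of the WT gate's UMIs, and without it the ratios were 0.0142 and 0.0186 in place of 0.174 and 0.191.

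Stem cell genes split within their list. Of 14 measured genes 8 were lower and 6 higher in the KO-labelled gate (median -0.12), and 9 were lower and 5 higher in the WT gate (-0.19). Hlf and Mecom, transcription factor genes of long-term stem cells, had KO-labelled ratios of 0.426 and 0.414 and WT ratios of 0.699 and 0.634. Ly6a, which encodes the Sca-1 antigen of the sort, stood at 22.6 against 63.0 CPM in the KO-labelled library and 16.3 against 39.2 CPM in the WT library. Slamf1, which encodes the CD150 of the sort, was higher in the gate, at 40.4 against 22.2 CPM in the KO-labelled library and 19.4 against 17.1 CPM in the WT library. Cd34, a progenitor antigen, had ratios of 0.488 and 0.657. Against depth-matched cells the WT median turned to 0.14, and Hlf (0.961) and Mecom (0.885) came close to 1, so the WT part of this pattern moved with depth. The KO-labelled ratios at matched depth were 0.482 and 0.462.

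The counts of erythroid genes low in the gate moved with depth in the WT library, and their difference between libraries was not tested. Of 20 measured genes 16 were lower in KO-labelled gate cells (median -0.77), while in the WT library 10 of 19 were lower (-0.14). Against depth-matched cells 15 of 20 were lower in the WT gate (-0.43) and 16 of 20 in the KO-labelled gate (-0.94), while the WT median was 0.19 without the 5% deepest cells. The red cell haemoglobin gene Hbb-bs stood at 134 against 721 CPM in the KO-labelled library and at 108 against 139 CPM in the WT library, where 1 gate cell held 66.0% of its UMIs. The WT ratio of 0.778 became 0.265 without that cell and 1.63 against depth-matched cells. Gata1, a transcription factor of both the erythroid and the megakaryocyte lineage, was higher in the gate, with ratios of 1.55 and 1.34. Gata2, its relative in earlier progenitors and mast cells, stood at 207 against 139 CPM and at 192 against 160 CPM. Spi1, the myeloid and lymphoid factor PU.1, was lower, with ratios of 0.605 and 0.637. In the haematopoietic transcription factor list as a whole, 16 of 24 measured genes were higher in the KO-labelled gate and 16 of 23 in the WT gate, against 5060 of 9407 and 5772 of 9550 of all genes.

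Cell cycle genes differed by small amounts. In the S phase list 24 of 25 genes were lower in the KO-labelled gate (median -0.15) and 25 of 25 in the WT gate (-0.09). Rrm2, a subunit of ribonucleotide reductase, was the furthest of the named S phase genes, at 37.7 against 62.5 CPM and 43.6 against 57.0 CPM. In the G2 and M phase list 25 of 26 and 26 of 26 genes were higher, with medians of 0.18 and 0.29. These medians were 0.02 and 0.03 against depth-matched cells, so nearly all of the G2 and M difference was absent at equal depth. The mitotic genes Cenpf and Ccnb1 had KO-labelled ratios of 1.25 and 1.22.

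Of the pathways of the defining genes, the receptor, convertase and Gadd45 lists had medians near that of all genes without depth matching. The lectin list had several members low in the gate. Against depth-matched cells the receptor medians were 0.09 (KO-labelled) and 0.14 (WT), and the convertase medians 0.20 and 0.23. The Gadd45 medians were then 0.21 and 0.19, and those of all genes 0.02 and 0.05. The values that follow are without depth matching. Of 25 measured genes of protease-activated receptors and their G proteins 17 were higher in the KO-labelled gate (median log2 ratio 0.06), and 18 of 26 in the WT gate (0.08), where 5060 of 9407 and 5772 of 9550 of all genes were higher. F2rl2 was the only one at 1.5-fold or more in that direction. Gnaq, the Gq α subunit that couples to PAR1, stood at 63.6 against 45.6 CPM (1.39) and 42.5 against 35.2 CPM (1.21). Rgs18, a brake on such signals in platelets, had ratios of 1.34 and 1.21. The proprotein convertase and substrate list had medians of 0.09 and 0.16, and Tgfb1, a known furin substrate, stood at 525 against 404 CPM and 483 against 406 CPM. In the C-type lectin and Fc receptor list 10 of 15 genes were lower in the KO-labelled gate and 11 of 15 in the WT gate. At least 1.5-fold lower were 6 and 5 of the 15, against 407 of 9407 and 263 of 9550 over all genes. Fcer1g, the γ chain itself, stood at 42.3 against 117 CPM in the KO-labelled library and 45.2 against 95.5 CPM in the WT library. In the Gadd45 and p53 list the medians were 0.08 and 0.03. Ddit3, a stress-induced factor, was the furthest up of its named genes in the KO-labelled library, with ratios of 1.23 and 1.08.

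RUNX genes were slightly higher in the gate. Runx1 stood at 224 CPM in KO-labelled gate cells against 181 CPM in other cells (1.24), and at 117 against 101 CPM in the WT library (1.15). Runx3 had ratios of 1.27 and 1.19, and Cbfa2t3, a corepressor gene of the ETO family, of 1.26 and 1.07. Runx2 had ratios of 0.843 and 0.842, and the WT ratio became 1.08 against depth-matched cells.

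The smaller lists followed no single direction. Cpa3, a mast cell protease gene, had ratios of 0.853 and 0.725, the latter 1.07 at matched depth, and 5 of the 10 measured genes of the mast cell, basophil and eosinophil list were higher in the KO-labelled gate against 4 of 13 in the WT gate. Receptors of the cytokine and niche list were mostly lower, 14 of 18 and 13 of 17, with Csf3r, the G-CSF receptor, at 0.570 and 0.651. Among MHC genes the class II genes H2-Aa and H2-Eb1 had KO-labelled ratios of 0.353 and 0.376, while the list medians were 0.07 and -0.06. The interferon-stimulated gene Ifitm1, also marked in stem cells, had ratios of 0.451 and 0.644, the latter 1.005 at matched depth, with list medians of -0.01 and -0.08. Immediate early genes had medians of -0.14 and -0.23, and quiescence genes of 0.02 and -0.02. Against depth-matched WT cells the medians of the mast cell, immediate early, quiescence, MHC and interferon-stimulated lists turned to 0.10, 0.18, 0.29, 0.11 and 0.13.

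The WT cells of the gate were then set against the KO-labelled ones for the genes that came with it. The 2 comparisons share no cells. Among 5564 genes at 20 CPM or more in both libraries, 41 were at least 1.5-fold higher in the KO-labelled gate (0.737%) and 18 in the WT gate (0.324%). They shared 16, which was 39.0% of the KO-labelled and 88.9% of the WT genes. The 16 were Cavin2, Cdc25b, P2ry1, Pde5a, Pf4, Ache, Gm15915, Plek, Samd14, Itga2b, Itgb3, F2rl2, Mfsd2b, Treml1, Rab27b and Slc14a1. Itga2b and Itgb3 encode the 2 chains of the platelet fibrinogen receptor, Plek a protein kinase C substrate of platelets and Rab27b a GTPase of platelet granule release. Itga2b stood at 303 against 180 CPM in the KO-labelled library and 253 against 160 CPM in the WT library. The other 25 KO-labelled genes, among them Gata1, Gp9, Gp5, Cd9 and Rap1b, had WT ratios of 1.14 to 1.47, so that 41 of 41 were above 1 in the WT library, against 63.9% of all genes. The names of these shared genes outside the fixed naming rule were chosen after their values were seen.

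Sharing was larger among genes low in the gate. At least 1.5-fold lower were 116 genes in the KO-labelled gate (2.08%) and 79 in the WT gate (1.42%), and 75 were shared, 64.7% and 94.9%. Of the 116, 114 were also below 1 in the WT library, the exceptions being Pla2g12a at 1.03 and Ermap, a red cell surface gene, at 1.16. At 2-fold 62 and 45 genes were lower (1.11% and 0.809%) and 43 were shared. At 2-fold higher, 8 of the 5564 genes passed in the KO-labelled gate (0.144%) and 0 in the WT gate. All 8 were above 1 in the WT gate, where their median log2 ratio was 0.81 against 1.09 in the KO-labelled gate. Over all genes at 20 CPM or more in the WT library, whatever their KO-labelled level, 1 of 5950 was 2-fold higher in the gate (0.0168%), Serpine2, and 50 were 2-fold lower (0.84%). Across the 5564 genes the log2 gate ratios of the 2 libraries had a Pearson r of 0.847 and a Spearman rho of 0.596. Genes are not independent, and both ratios move with depth in their library.

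**Figure D3:**
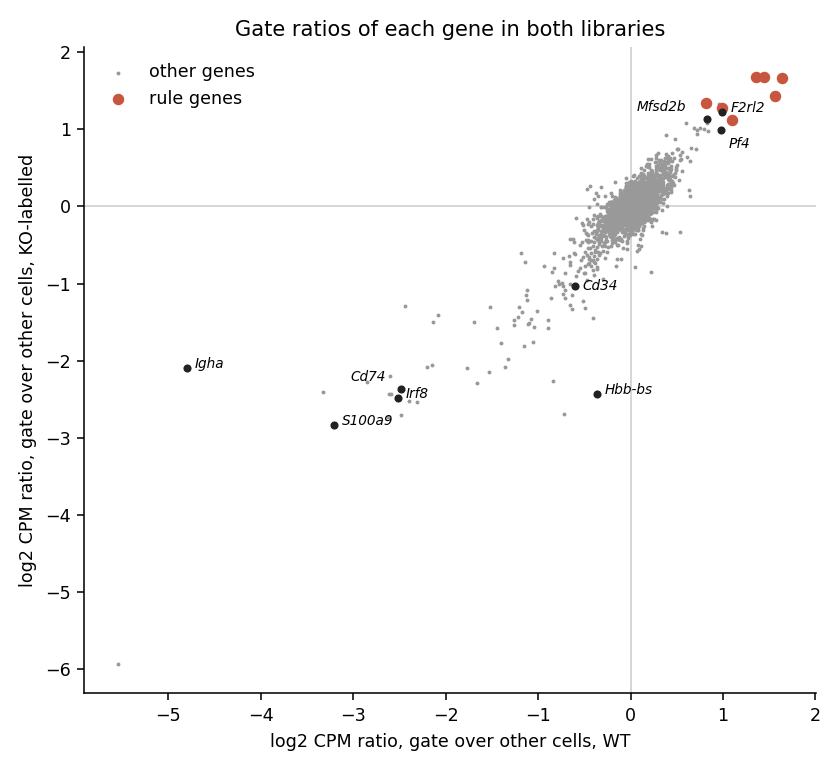
Log2 of the CPM in gate cells divided by the CPM in other kept cells, for each gene at 20 CPM or more in both libraries, WT library on the x axis and KO-labelled library on the y axis. The defining genes (large points) chose the cells; Pf4, F2rl2 and Mfsd2b lie high in both libraries and Irf8, Cd74 and S100a9 low in both (Pearson r 0.847 over 5564 genes).

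Ranked genes of the WT gate had 20 CPM or more and a UMI in at least 10% of the cells on the higher side. The highest of them outside the defining set were Serpine2, F2rl2, Pf4, Ehd3, Pde5a and Timp3. Clec1b and Slc35d3, under 20 CPM in the WT library, were not ranked and had ratios of 2.17 and 2.15. Serpine2, an inhibitor of thrombin and other serine proteases, stood at 60.0 CPM in WT gate cells and 25.8 CPM in other WT cells (2.32, interval 2.16 to 2.49), and at 7.19 and 3.66 CPM in the KO-labelled library (1.96). Ehd3, which acts in membrane recycling, stood at 26.6 and 13.6 CPM in the WT library (1.96), and at 1.57 and 0.771 CPM in the KO-labelled library (2.03). Timp3, a metalloprotease inhibitor gene, stood at 28.8 and 15.7 CPM (1.83), and at 2.63 and 2.03 CPM (1.30, 1.01 to 1.66). Serpine2 and Ehd3 thus had similar gate ratios at levels far apart. Against depth-matched WT cells the Serpine2 ratio was 1.74, and 0 genes were then 2-fold higher in the WT gate. Without the 8% of cells with the highest doublet scores 11 were.

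The level of lineage genes differed with the number of defining genes. Among cells of 10000 to 15000 UMIs, the summed level of the megakaryocyte and platelet list in the KO-labelled library was 689 CPM with 0 of the genes, 2239 CPM with 3, 2578 CPM with 4 and 2422 CPM with 6. In the WT library it was 1570 CPM with 0, 3133 CPM with 2, 2916 CPM with 3, 2884 CPM with 4 and 3010 CPM with 5 (47 cells). The WT level with 4 or 5 genes was thus no higher than with 2. The 6 WT cells with 6 genes stood at 2151 CPM. The KO-labelled cells just outside the gate, with 3 genes, had 2239 of the 2578 CPM seen just inside. The granulocyte and monocyte progenitor list went from 5707 CPM with 0 genes to 1393 CPM with 3 and 1082 CPM with 4 in the KO-labelled library, and from 4196 to 1420 and 1150 CPM in the WT library. The stem cell list stayed between 534 and 633 CPM in KO-labelled cells with 0 to 6 genes. Pf4 in KO-labelled cells stood at 54.6 CPM with 0 genes, 628 CPM with 4 and 431 CPM with 6. The KO-labelled class with all 7 genes held 18 cells in this depth range, and Pf4 was at 99.8 CPM in it.

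**Figure D4:**
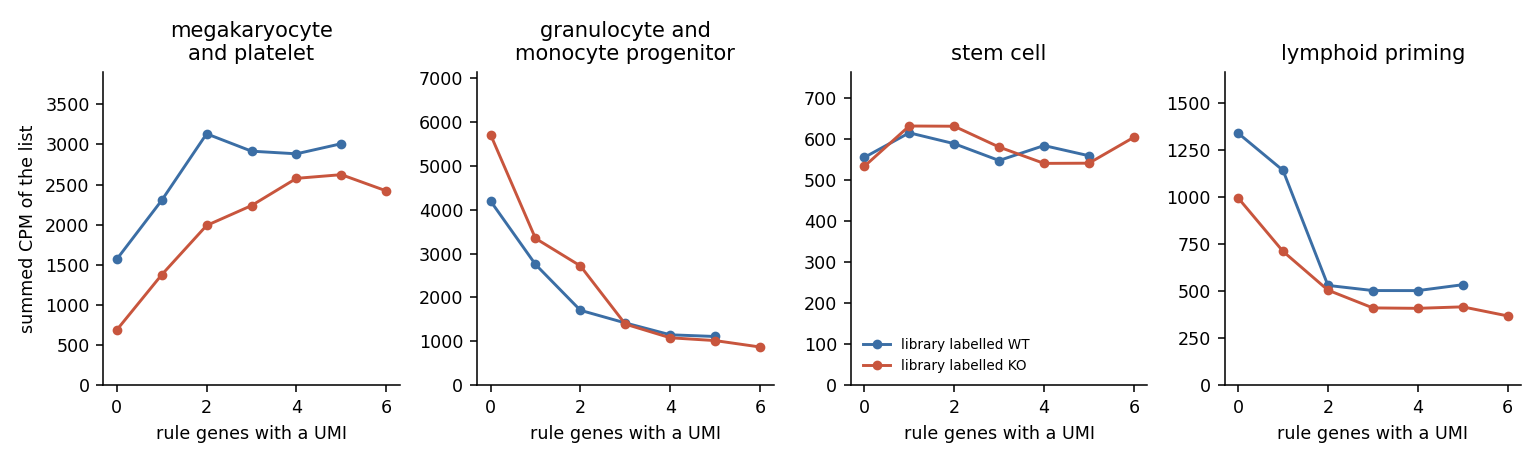
Summed CPM of 4 lineage lists (y axes, from 0) by the number of defining genes with a UMI (x axes), in cells of 10000 to 15000 UMIs, for classes of at least 20 cells. The megakaryocyte and platelet list is higher and the granulocyte and monocyte list lower in cells with 3 or more genes than with 0, in both libraries, while the stem cell list stays between 534 and 633 CPM in the KO-labelled library.

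Gate cells lay near each other when the defining genes were not used. On 30 principal components made without the 7 genes, 49.7% of the 20 nearest cells of a KO-labelled gate cell were gate cells, against 23.7% for other cells and 32.1% of the library. The WT values were 23.2%, 9.27% and 11.3%. Among cells of 10000 to 15000 UMIs they were 48.4% against 25.9% in the KO-labelled library and 20.04% against 9.44% in the WT library. After thinning to 3000 UMIs, gate cells still had 47.2% and 18.5% gate neighbours.

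The gate was not a single cluster. In the KO-labelled library the largest shares in the gate were in cluster 5 (led by the mitotic genes Cdc25b, Pimreg and Cenpf) at 56.6%, cluster 2 (Rec114, Trib2 and Csrp3) at 55.0%, cluster 14 (Pf4, Mrvi1 and Clec1b) at 53.7% and cluster 3 (Ccl2, Mycn and Pdzk1ip1) at 52.1%. Cluster 2 held the most gate cells, 560, with the erythroid list at 2794 CPM and the megakaryocyte and platelet list at 793 CPM. In cluster 14 they were at 737 and 8843 CPM. The largest WT shares were in cluster 5 (Csrp3, Scin and Trib2) at 25.7%, cluster 8 (Cdc25b, Fam83d and Aspm), with 103 of 515 cells, cluster 10 (Mt2, Sphk1 and Slc25a21) at 19.9% and cluster 6 (Mrvi1, Clec1b and Pf4) at 19.1%. The WT cluster 10 was also the deepest of the WT clusters, with a median of 24008 UMIs. In WT clusters 5 and 10 the erythroid list was at 4122 and 7141 CPM, the megakaryocyte and platelet list at 531 and 586. In WT cluster 6 they were at 867 and 8488 CPM. Of the erythroid reference cells, 21.6% in the WT and 34.8% in the KO-labelled library were in the gate, without depth matching. KO-labelled clusters 12 and 16 and WT cluster 15, at 9051 CPM or more of the erythroid list, had shares of 21.0%, 3.85% and 3.85%. Low shares were found in clusters led by the stem cell genes Procr and Ly6a, 6.42% in KO-labelled cluster 0 and 2.11% in WT cluster 1, and in clusters led by myeloid genes. The latter were 8.80% in KO-labelled cluster 9 (Mpo, Prg2 and Ctsg), 4.12% in KO-labelled cluster 13 (Lgals3, Fn1 and Ccr2) and 4.57% in WT cluster 9 (Elane, Mpo and Ngp). The clusters led by Procr and Ly6a had medians of 6609 (KO-labelled) and 6065 UMIs (WT), against 6624 UMIs in KO-labelled cluster 2. The part of depth in these shares was not tested. The stem cell list stood at 1414 CPM in KO-labelled cluster 0 and 877 CPM in cluster 3. In KO-labelled clusters 7 and 11, with shares of 14.6% and 8.29%, it stood at 858 and 852 CPM. The markers of 1 lineage did not cover the gate, so no cell type name is given to it.

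**Figure D5:**
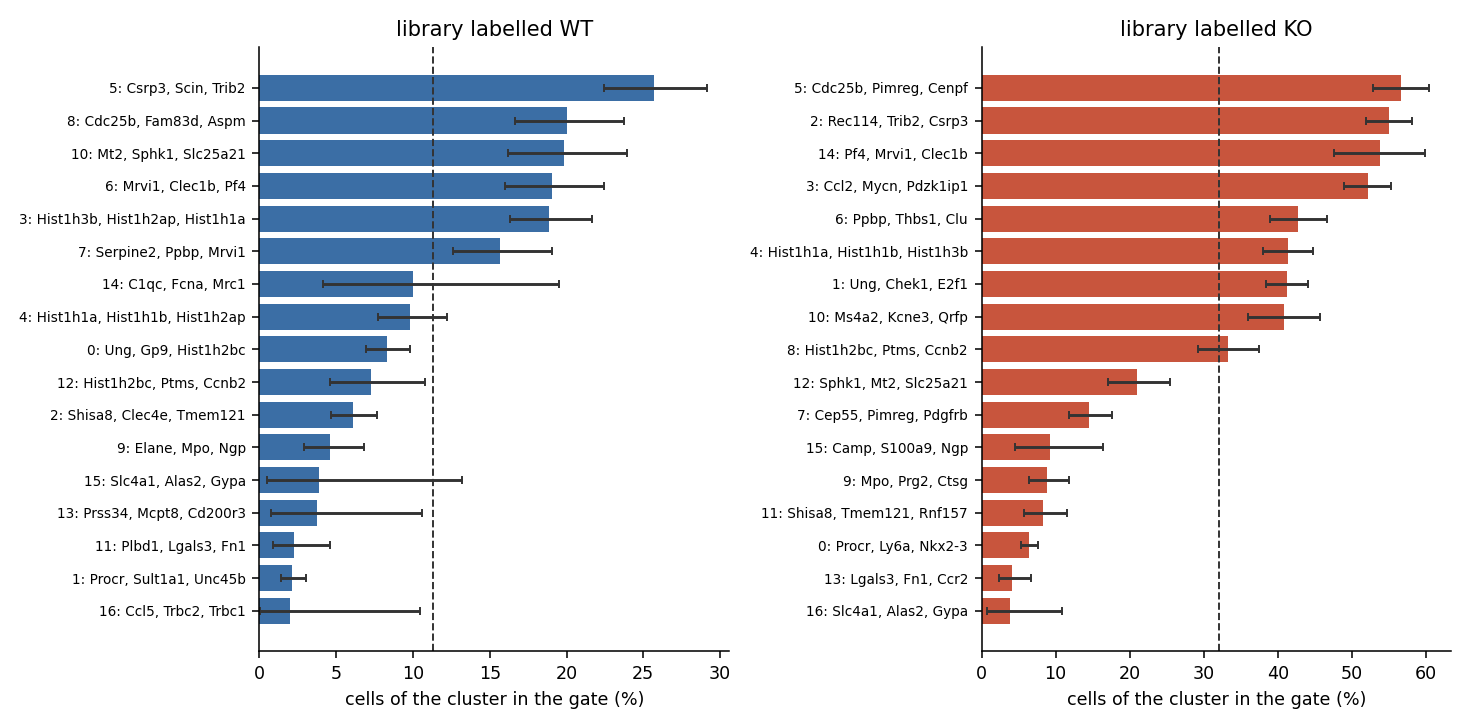
Percent of the cells of each cluster that were in the gate, with exact 95% binomial intervals for counting error, for clusters of at least 50 cells made in each library without the defining genes and labelled by number and 3 leading genes. Dashed lines give the gate share of the library, 11.3% (WT) and 32.1% (KO-labelled); in both libraries the clusters led by Procr fall far to the left of the line.

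Within clusters the genes high in the gate were mostly still high, while most of those low in it were lower in some clusters and higher in others. Pde5a was higher in gate cells in 12 of 12 KO-labelled and 9 of 9 WT clusters that had at least 50 cells on each side and 20 UMIs of the gene. Mfsd2b, Samd14, Dnah12, Mylk3 and Chst1 were higher in 12 of 12 KO-labelled clusters. In the WT library Mfsd2b and Samd14 were higher in 8 of 9 clusters, Mylk3 in 7 of 8 and Dnah12 in 6 of 9. Chst1 could be read in only 1 WT cluster, where it was higher. The ratios within clusters were not depth-matched. F2rl2 was higher in 10 of 11 KO-labelled clusters (median ratio 1.5) and 9 of 9 WT clusters (2.01). Pf4 was higher in 9 of 12 KO-labelled clusters, with a median ratio of 1.13, and in 9 of 9 WT clusters (1.63). Irf8 was lower in only 4 of 8 KO-labelled and 3 of 7 WT clusters, with median ratios of 0.953 and 1.05, and Cd74 in 6 of 11 and 5 of 9. Cfp was lower in 4 of 4 KO-labelled and 4 of 4 WT clusters, and Mecom in 9 of 9 and 7 of 9. The part of the clusters in the low levels of the gate as a whole was not tested.

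In the last comparison the gate cells of the 2 libraries were set against each other. Of 5972 genes, 56 were at least 2-fold higher in KO-labelled than in WT gate cells (0.938%) and 50 at least 2-fold lower (0.837%). Genes were ranked here only if 10% or more of the cells on the higher side held a UMI. Of these the highest were Chst1 at 20.7 CPM against 1.07 CPM (19.2-fold, interval 12.4 to 31.7), Lpcat2, a lysophospholipid acyltransferase gene, at 5.93-fold, Fcgr2b, the inhibitory Fc receptor, at 5.82-fold, and Cpa3 at 4.18-fold. Some genes seen in fewer cells lay above Lpcat2, among them Thbs1 at 11.1-fold. Among the lowest were Ehd3 at a ratio of 0.0590, Timp3 at 0.0913 and Serpine2 at 0.120. The same genes differed in the same direction in the cells outside the gate: Chst1 9.30, Lpcat2 5.31, Fcgr2b 3.61, Cpa3 3.55, Ehd3 0.0567, Timp3 0.129 and Serpine2 0.142. Of the 56 higher genes all 56 were also higher outside the gate and 21 were 2-fold higher there. Of the 50 lower genes all 50 were also lower outside it, 26 of them 2-fold. Outside the gate 47 of 5906 genes were 2-fold higher (0.796%) and 38 lower (0.643%).

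In gate cells with Y-linked UMIs and no Xist (305 KO-labelled, 867 WT), 53 of the 56 and 48 of the 50 genes kept their direction, and 46 and 43 were still 2-fold apart. Pf4 was 0.286-fold in KO-labelled against WT gate cells and 0.283-fold in the cells outside the gate. The neutrophil list was higher in KO-labelled gate cells in 7 of 7 measured genes (median 3.95) and outside the gate in 8 of 8 (2.80). In the KO-labelled gate 1 cell held 87.6% of the UMIs of Camp, a neutrophil granule gene, and in gate cells with Y-linked UMIs and no Xist its ratio was 3.02 in place of 15.4. For S100a9 that ratio was 2.33 in place of 8.43. Megakaryocyte and platelet genes went both ways between the gates: 12 of 19 were lower, 5 of 19 passed 1.5-fold in each direction, and the median was -0.12. Over all genes 6305 of 9482 were lower and 3177 higher, with a median of -0.11, and 541 were 1.5-fold lower and 309 higher. Immediate early genes were higher in 12 of 15 in the gate (median 0.42) and in 12 of 14 outside it (0.38). S phase genes were lower in 25 of 25 and G2 and M phase genes in 25 of 26, with medians of -0.27 and -0.23. Outside the gate they were lower in 22 of 25 and 23 of 26 (medians -0.25 and -0.10), where 6294 of 9588 of all genes were lower. The WT gate cells were also the deeper ones, and the part of depth in these values was not tested.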

How the data were processed

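UMI counts per gene and barcode from 2 single-cell libraries were used as the authors deposited them. The submitters' processing notes name Cell Ranger 2.1.1 and mm10, the file headers give software version 3.1.0, and the labels' protocols name the 3′ v2 kit. Read-level settings are not given in the sources used here. Groups came from the genotype labels.

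A barcode was kept when it had 500 genes or more and when mitochondrial genes gave no more than 10% of its UMIs. This removed 497 WT and 629 KO-labelled barcodes. Gate cells had at least 1 UMI for 4 of the 7 defining genes. The members, gene lists and alternatives were chosen with earlier results of these data known. UMIs were summed over gate cells and over other cells of each library and scaled to 1000000 (CPM). Ratios have exact conditional binomial and shares exact Clopper-Pearson 95% intervals. Counts of genes used a floor of 20 CPM, lists a floor of 5 CPM, and both left out the defining genes. For depth matching, other cells were weighted to the deciles of the gate's UMIs. Thinning took 3000 UMIs per cell without replacement and left out 155 WT and 91 KO-labelled cells. A count of 0 allows up to 3 counts.

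Named genes were the defining genes, Runx1, the 12 highest and 12 lowest gate ratios of the KO-labelled library and the 6 highest of the WT library. To these came up to 4 members of each list and the 4 highest and 4 lowest ratios between the gates. Ranked genes reached 20 CPM, and on the higher side 10% of cells or more held a UMI. Ribosomal protein, mitochondrial, sex-linked, haemoglobin and unnamed genes were left out of the ranks. Named genes without values in the text are counted in their lists, and 1 gene that the rule names is not reported here.

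Clusters used 10000 counts per cell, 2000 variable genes, 30 principal components, 20 neighbours and Leiden resolution 0.8, without the defining, ribosomal, mitochondrial and sex-linked genes. Doublets were not removed: Scrublet (scanpy 1.11.5) marked 0 cells in both libraries and so did not work, and its scores alone were used. GENCODE M21 (GRCm38) gave gene positions, and promoter windows are from RefSeq on GRCm38.p6. The ratio and count steps were tested on simulated sums. Python 3.11.15, numpy 2.4.6, scipy 1.17.1, pandas 2.3.3 and leidenalg 0.10.2 were used.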

Additional observations from a re-analysis of the deposited data

Results flagged for a closer look

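Txnip, an inhibitor of thioredoxin and of glucose uptake, had a gate ratio of 1.14 in the KO-labelled library and 0.928 in the WT library, and so lay on opposite sides of 1. Against depth-matched WT cells its ratio was 1.32. Fosb, an immediate early gene, had ratios of 1.2 in the KO-labelled library and 0.737 in the WT library, and 0.913 at matched depth in the latter. Neither difference between libraries was tested.

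Among the KO-labelled barcodes that the cell filter left out, 11 met the gate, and among the WT barcodes left out 2 did. These barcodes are in no comparison.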

How the results depend on the processing

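Of 1776 ratios of named genes under an alternative, 34 lay on the other side of 1 from the reported ratio. These belonged to 19 ratios, 0 of which were 2-fold as reported. Under at least 1 alternative the medians of 8 of 21 WT lists and 4 of 21 KO-labelled lists changed sign, among them the WT erythroid list (-0.43 to 0.19) and the WT stem cell list (-0.30 to 0.14). No paired analysis was possible because each genotype had 1 library. The alternative without cells called by Scrublet gave no value, as 0 cells were called. Leaving out the 8% highest Scrublet scores took its place and, like leaving out cells with both Xist and Y-linked UMIs and taking cells with Y-linked UMIs and no Xist in both libraries, was picked once the data had been seen.

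The share of the KO-labelled and the WT library in the gate was 53.7% and 27.8% with at least 3 of 7 genes, and 14.5% and 3.19% with at least 5. It was 35.1% and 17.9% with 3 of the 5 genes other than Fam189b and Gadd45g, and 34.9% and 14.6% with at least 1000 genes and at most 5% mitochondrial UMIs. It was 30.3% and 9.31% without the highest Scrublet scores, and 4.69% and 0.483% after thinning to 3000 UMIs. The WT share alone moved to 9.96% without the 5% deepest cells and to 12.96% in cells with Y-linked UMIs and no Xist. WT gate cells had 18.5% gate neighbours after thinning.

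Genes 2-fold higher in the KO-labelled gate numbered 29 at a floor of 5 CPM, 4 at 50 CPM and 7 with at least 5 genes. In the WT gate they numbered 14 at 5 CPM, 4 with at least 3 genes, 3 with at least 5, 11 without the highest Scrublet scores and 0 at matched depth. Genes 2-fold lower in the KO-labelled and WT gates numbered 230 and 121 at 5 CPM and 45 and 29 at 50 CPM, and those lower in both 108 and 23. Genes 1.5-fold higher in both gates numbered 51 at 5 CPM, 10 at 50 CPM, 8 under the stricter cell filter and 25 without the highest Scrublet scores. Between the gates, 126 genes were higher and 158 lower in the KO-labelled one at 5 CPM, 24 and 15 at 50 CPM, and 81 lower in cells with Y-linked UMIs and no Xist. At 1.5-fold, 57 and 27 genes were higher in the KO-labelled and WT gates, 151 and 86 lower, 75 lower in both, and 144 higher and 204 lower between the gates. A looser fold or floor counts more genes by construction, and for the other settings the cause was not tested. Of the same ratios, 722 moved by more than their counting interval and 1054 did not. Genes with under 20 UMIs in a gate, such as Chil3 in the WT library, were limited by depth.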
